A study of Mus musculus with 4 samples.

Results

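The genes described here are 39 cell-cycle and proliferation genes, named by symbol and looked up in tables of liver RNA from Fto knockout and wild-type mice. They were divided by role into 11 genes of DNA replication, 16 genes of mitosis and 12 cyclins, cyclin-dependent kinases and kinase inhibitors. In the input table, 33 of the 39 had a row among 12883 genes. Another 7569 transcript features made up the immunoprecipitate table, and 13 of these belonged to 7 of the genes. Both tables give Cdk1 its older name Cdc2a, and it was matched through its gene identifier or synonym. Birc5, Plk1, Nusap1, Ccnb1 and Ccnb2 had no row in either table, and Aurka had one in the immunoprecipitate table only.

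The study asked whether the RNA demethylase FTO controls methylation of adenosines in RNA. Its 4 labelled groups were Fto knockout immunoprecipitate, Fto knockout input, wild-type immunoprecipitate and wild-type input, all from liver biopsies on a C57/Bl6 background, with 3 replicates stated for each. The immunoprecipitate was made by miCLIP, in which an antibody against methylated adenosine is crosslinked to RNA, and the input is the RNA before that step. The sources used here do not give how the Fto allele was made, whether other tissues lack it, or the age and sex of the mice. The deposited files hold the authors' comparison of knockout with wild type, with 1 mean normalized count, 1 log2 fold change and 1 test per gene or transcript, and single replicates were not analysed here. Nothing in the labels says that replicates were separate animals, so a p-value here covers the spread between samples that could be technical repeats.

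Cells divide by copying their DNA in S phase and separating the copies in mitosis. Cyclins switch on cyclin-dependent kinases at each step, and inhibitors such as p21 and p27 hold the kinases back. E2F factors drive genes of replication, and mitotic genes are switched on later through promoter elements that include the CHR and the CCAAT box. Most hepatocytes of an adult liver are outside the cycle, and many hold more than 1 set of paired chromosomes. Dividing cells of a liver can be hepatocytes or cells of the blood, immune or vessel lineages. In bulk liver RNA, fewer cells of a type and less RNA per cell cannot be told apart.

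Neither table states its direction. Fto itself checked the labels of the input: its log2 fold change was −1.49 with an SE of 0.27 (DESeq2 adjusted p = 3.52e-04) in the authors' deposited table, so input values are read as knockout over wild type. All 8 hepatocyte markers were present in the input, at mean normalized counts from 836 to 84262 in the authors' deposited table, so the RNA carried the defining genes of the labelled tissue. By contrast the 33 cell-cycle genes had means from 1.60 to 56.2 with a median of 8.52 in the authors' deposited table, where the median gene had 26.1. Only 14 of the 33 reached a mean of 10, so most cell-cycle genes rested on few reads.

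In the input, 0 of the 33 cell-cycle genes passed the authors' adjusted p under 0.05, where 0.0389% of all genes tested did. In the authors' deposited table all 33 shared an adjusted p of 0.9998, a value found at 12835 genes. An unadjusted p under 0.05 was reached by 3 of the 33, Top2a and Mki67 above 0 and Cdkn1a below 0, against 2.21% of all genes. Without adjustment, 1.23% of all genes were past that threshold above 0 and 0.979% below 0. None of the differences below therefore stands as a called change, and the values are given as estimates with their errors.

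The estimates lay mostly on 1 side. Of the 33 genes, 27 had a log2 fold change above 0, against 53.5% of all genes in the authors' deposited table. Their median was 0.27, where the median of all genes was 0.02, and the 33 spanned −0.63 to 0.66 in the authors' deposited table. Of the 33, 22 lay above the upper quartile of all genes, 8 between the quartiles and 3 below the lower quartile. No SE in the input table exceeded 0.302, even at the lowest means. The SE did not grow steadily as reads became fewer, but rose and then fell. For the 8 hepatocyte markers, the genes with many reads, it lay between 0.20 and 0.26. Ccne1, the rarest of the 33 at a mean of 1.60, had an SE of 0.20, and Mcm2 at a mean of 18.2 had 0.30. Folds and intervals at different means are therefore not on an equal footing. The sources used here do not say whether the authors shrank the folds, and this was not tested.

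**Figure D1:**
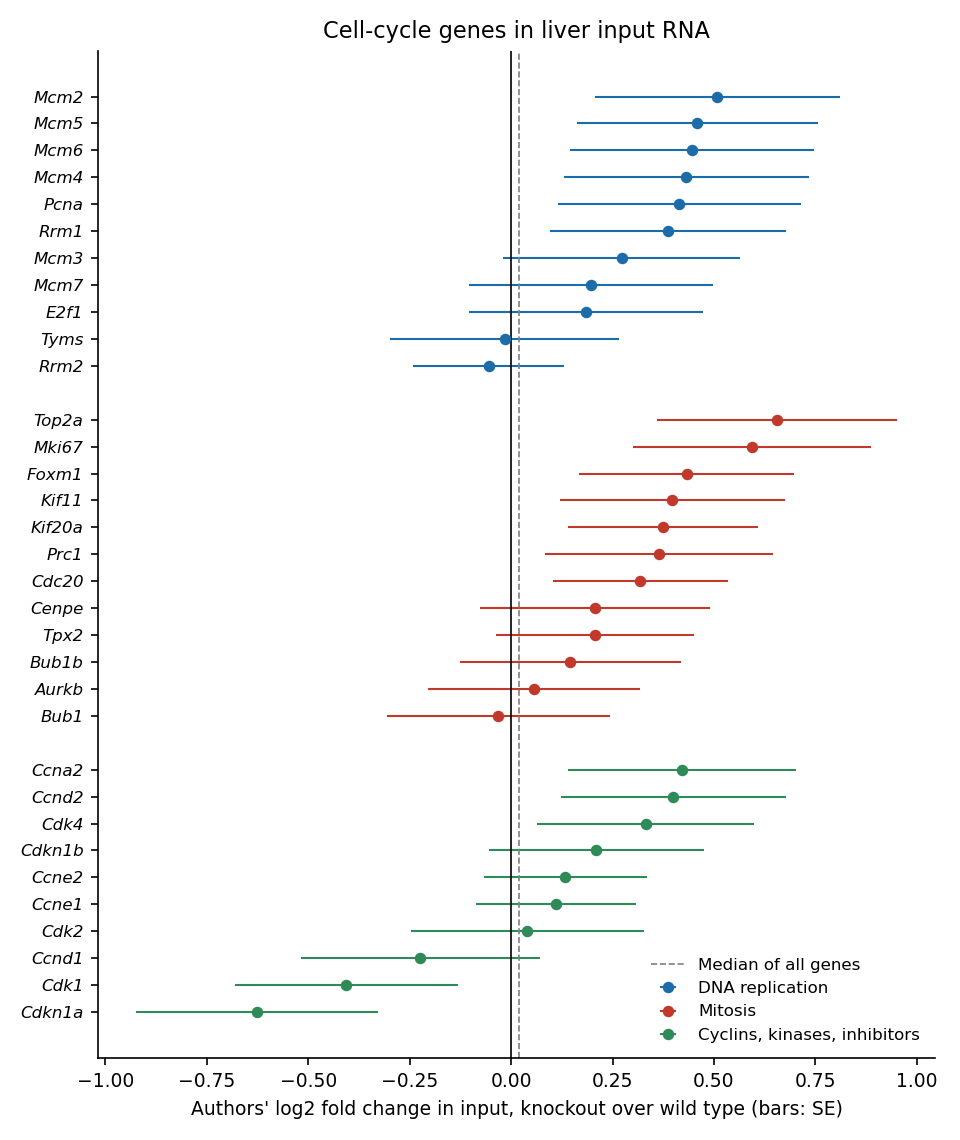
Log2 fold change of the 33 cell-cycle genes in liver input, knockout over wild type (horizontal axis), grouped by role down the page; points are the authors' estimates, bars 1 SE, and the dashed line is the median of all genes. Most points lie right of 0, from Top2a at 0.66, while Cdkn1a at −0.63 and Cdk1 at −0.41 lie farthest to the left.

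At the lowest means, nearly all genes of the table lay on that side. Of 845 genes with a mean under 3, 87.2% had a fold above 0 in the authors' deposited table, and the lowest fold among them was −0.16. Ccne1, Ccne2, Cdc20, Kif20a and Tpx2 were in that range, and all 5 stood above 0, the direction of nearly all genes this rare. From a mean of 5 to 10 the share of all genes above 0 was 51.1%, and 6 of 10 cell-cycle genes were above 0 in the authors' deposited table. At a mean of at least 10, 12 of 14 cell-cycle genes were above 0, against 50.6% of all such genes in the authors' deposited table, with a median of 0.39. The 14 are 7 replication genes, Top2a, and 6 cyclins, kinases and inhibitors. These 14 lie in a range where genes as a whole were split evenly around 0. How the low-count asymmetry of the table arose was not tested.

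**Figure D2:**
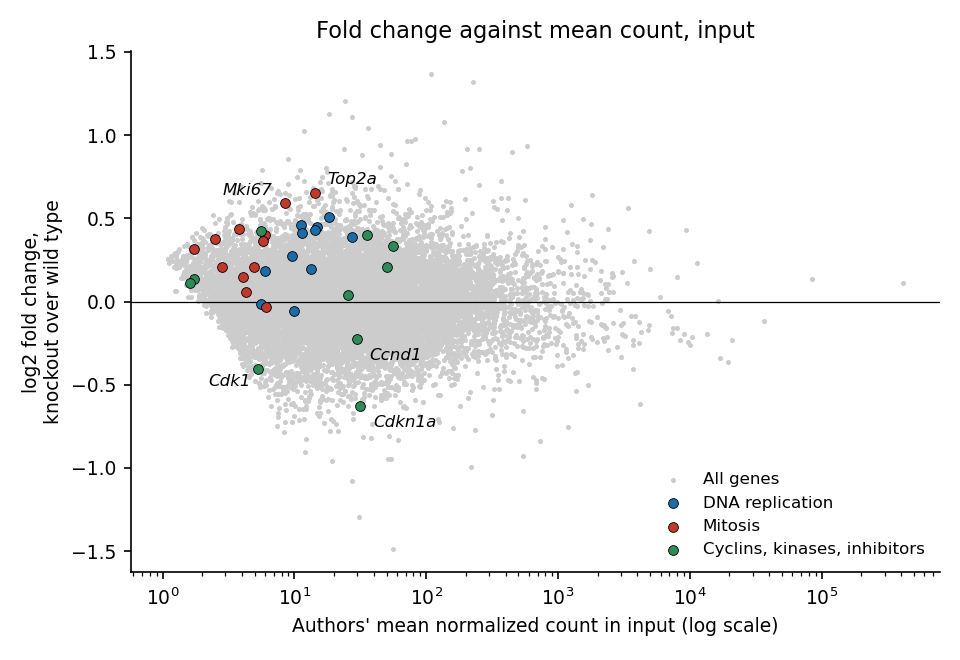
Log2 fold change in input (vertical axis) against the authors' mean normalized count (horizontal axis, log scale), with all 12883 genes in grey and the 33 cell-cycle genes coloured by role. Under a mean of 3 the grey cloud lies almost wholly above 0, and from a mean of 10 upward it is even around 0 while 12 of 14 coloured points lie above.

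Among the replication genes, all 6 subunits of the MCM helicase, which unwinds DNA ahead of the fork, had folds above 0. Mcm2 was the highest, with a mean of 18.2 and a log2 fold change of 0.51 (SE 0.30, p = 0.0919) in the authors' deposited table. The authors' deposited table gave 0.46 for Mcm5, 0.45 for Mcm6, 0.43 for Mcm4, 0.27 for Mcm3 and 0.20 for Mcm7. The median of the 6 subunits was 0.44, and their means lay between 9.58 and 18.2 in the authors' deposited table. Each subunit's SE was close to 0.30, so each of the 95% intervals reached below 0, as for Mcm2 from −0.08 to 1.10. The 6 subunits form 1 ring, and their folds are close to each other relative to those errors.

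Pcna, the sliding clamp that holds DNA polymerase on its template, stood at 0.41 (SE 0.30) in the authors' deposited table. The enzymes that make DNA precursors did not lie on 1 side. Rrm1, the large subunit of ribonucleotide reductase, stood at 0.39 (SE 0.29) in the authors' deposited table. Its partner Rrm2, the subunit made in S phase, stood at −0.06 (SE 0.19, p = 0.766) and was the lowest of the replication genes in the authors' deposited table. For Tyms, which makes thymidylate, the authors' deposited table gave −0.02 (SE 0.28). The transcription factor E2f1, an activator of S-phase genes, was at 0.19 (SE 0.29) in the authors' deposited table. Of the 11 replication genes, 9 were above 0 with a median of 0.39 in the authors' deposited table.

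Of the 16 mitosis genes, 12 were in the input, 11 of them above 0 with a median of 0.34 in the authors' deposited table. Top2a, the topoisomerase that untangles chromosomes (11:98992947-99024199, build GRCm38), had a mean of 14.2. Its log2 fold change was 0.66 (SE 0.30, 95% interval 0.08 to 1.23, p = 0.0268) in the authors' deposited table, higher than 99.5% of genes. Mki67, the coat protein of mitotic chromosomes and the usual marker of dividing cells (7:135689784-135716450), had a mean of 8.52. Its log2 fold change was 0.59 (SE 0.29, 95% interval 0.02 to 1.17, p = 0.0433) in the authors' deposited table. These were the highest folds of all 33 genes, and both lower bounds lay close to 0.

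The other mitosis genes are given in the order of their folds. The authors' deposited table gave 0.43 (SE 0.26) for Foxm1, a transcription factor of mitotic genes. Kif11, the motor that pushes spindle poles apart, stood at 0.40, Kif20a, a motor of cell division, at 0.38, and Prc1, which bundles midzone microtubules, at 0.37 in the authors' deposited table. Cdc20, an activator of the anaphase-promoting complex, stood at 0.32 in the authors' deposited table.

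None of these reached an unadjusted p under 0.05, and the remaining 5 were lower still. Cenpe, a kinetochore motor, and Tpx2, a spindle assembly factor, were both at 0.21, and the checkpoint gene Bub1b at 0.15 in the authors' deposited table. The authors' deposited table gave 0.06 (SE 0.26) for Aurkb, a kinase of chromosome segregation, and −0.03 (SE 0.28) for the checkpoint kinase Bub1. Among mitosis genes only Top2a had a mean of at least 10, so the level of this group rests on rarer transcripts than that of the replication genes.

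Of the 12 cyclins, kinases and inhibitors 10 were in the input, 7 of them above 0 with a median of 0.12 in the authors' deposited table. The 8 cyclins and kinases alone lay on both sides of 0, with 6 above and a median of 0.12 in the authors' deposited table. Ccna2, the cyclin of S phase and G2, was highest at 0.42 (SE 0.28, p = 0.133) in the authors' deposited table. Ccnd2, a cyclin of G1, stood at 0.40 (SE 0.28), and its kinase Cdk4 at 0.33 (SE 0.27) in the authors' deposited table. The sister cyclin Ccnd1 lay on the other side, at −0.22 (SE 0.29, 95% interval −0.80 to 0.35, p = 0.446) in the authors' deposited table. Means were 35.4 for Ccnd2 and 29.7 for Ccnd1 in the authors' deposited table. The difference between the sister cyclins was not tested. Ccne2 at 0.13 and Ccne1 at 0.11 had means under 2 in the authors' deposited table, and Cdk2, their kinase, stood at 0.04.

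Cdk1, the kinase that starts mitosis, lay on the other side from most of the mitotic genes it acts with. Its log2 fold change was −0.41 (SE 0.27, p = 0.138) at a mean of 5.34 in the authors' deposited table, lower than all but 3.60% of genes. Its cyclin partner Ccna2 had a like mean of 5.58 and a fold of the opposite sign in the authors' deposited table. With these errors neither value is distinguishable from 0.

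The kinase inhibitors also stood apart from each other. Cdkn1a, which encodes p21 and is a main target of p53 (17:29090979-29100722), had a mean of 31.7 and a log2 fold change of −0.63 (SE 0.30, 95% interval −1.21 to −0.04, p = 0.0353) in the authors' deposited table. It was the lowest of the 33 genes and lower than all but 0.458% of all genes. Cdkn1b, which encodes p27, had a mean of 50.1 and stood at 0.21 (SE 0.27, p = 0.428) in the authors' deposited table.

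Because p21 is made under p53, 22 other p53 target genes were listed as a comparison. Of the 19 with a row, 15 lay below 0 in the authors' deposited table, with a median of −0.17 and extremes of −0.57 and 0.22, where 46.5% of all genes lay below 0. At a mean of at least 10, 13 of 16 were below 0, against 49.4% of all such genes. The median of the 16 was −0.17 in the authors' deposited table. An unadjusted p under 0.05 was reached by 0 of the 19 and the adjusted threshold of the authors' DESeq2 table by 0, where 2.21% and 0.0389% of all genes did. Most of these p53 targets lay on the same side as Cdkn1a, at smaller sizes. The list of p53 targets was chosen with earlier results of these data known, so its counts are a description only. Whether p53 activity differed between the groups was not tested.

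Other genes of the cell cycle were then set beside the 33, from 3 lists of 120 further genes that were drawn up by role. The 35 other replication genes with a row had a median of 0.10 with 23 above 0, and the 38 other mitosis genes had a median of 0.07 with 24 above 0 in the authors' deposited table. For 23 other control genes the median was 0.07 with 15 above 0 in the authors' deposited table. Together, 62 of 96 were above 0 with a median of 0.08, against 53.5% of all genes above 0. At a mean of at least 10, 20 of 38 were above 0, against 50.6% of all such genes. The median of the 38 was 0.06 in the authors' deposited table. The wider lists thus lay nearer to the median gene than the 33 did, and the difference between them was not tested. Both the 33 and the wider lists were chosen with earlier results of these data known, so the contrast is a description only.

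By the authors' adjusted p 0 of these 96 genes passed, and 3 reached an unadjusted p under 0.05, all above 0. Over all genes the shares were 0.0389% and 2.21%, so 3 of 96 is near the background. Uhrf1, which keeps DNA methylation in place through replication, stood at 0.70 (SE 0.25, p = 0.00569) in the authors' deposited table. Cdca3, a trigger of mitotic entry, stood at 0.60 (SE 0.26, p = 0.0225), and Rbl1, a pocket protein that represses cell-cycle genes, at 0.66 (SE 0.30, p = 0.0296) in the authors' deposited table. Uhrf1 and Cdca3 had means of 3.85 and 3.83, and Rbl1 one of 12.3, in the authors' deposited table.

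**Figure D3:**
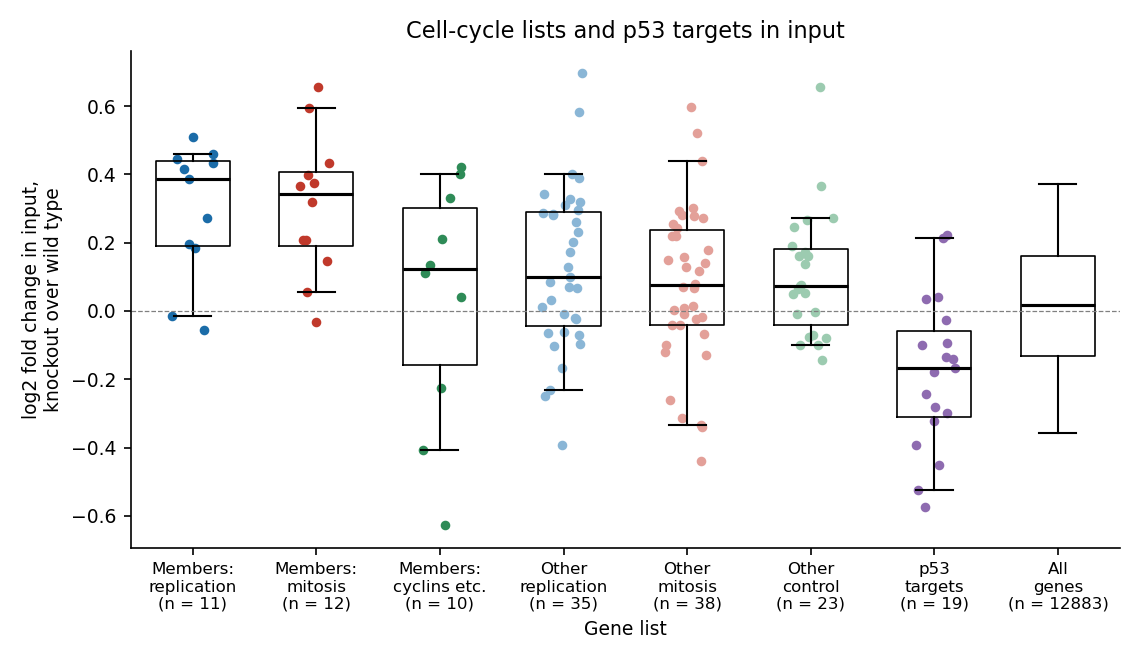
Log2 fold change in input (vertical axis) for the 3 role groups of the 33 genes, the 3 wider cell-cycle lists, the p53 targets and all genes; points are genes, boxes span the quartiles with the median as a thick line, and whiskers run from the 5th to the 95th percentile. Medians are 0.39 for replication and 0.34 for mitosis members, from 0.07 to 0.10 for the wider lists, and −0.17 for p53 targets.

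Markers of cell types that could divide in a liver were read in the same table. The 5 cholangiocyte markers had a median of 0.00 with 3 above 0 in the authors' deposited table. The 11 Kupffer cell markers had a median of 0.00 with 5 above 0, the 6 endothelial markers a median of 0.12 with 4 above 0 and the 6 stellate markers a median of 0.00 with 3 above 0 in the authors' deposited table. Of 11 lymphocyte markers 5 had a row, with a median of 0.09 and 3 above 0 in the authors' deposited table. Defining lymphocyte genes such as Cd3d, Cd8a, Ms4a1 and Cd79a were among those without a row. The authors' deposited table had 3 of 7 neutrophil markers, all above 0 at means under 5, and S100a9 was at 0.52 (SE 0.26, p = 0.0499). S100a9 did not pass the authors' adjusted p under 0.05. Ltf had a mean under 3, where 87.2% of all genes were above 0 in the authors' deposited table. S100a8 and S100a9 had means from 3 to 5, where 55.5% of all genes were above 0.

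Red cell markers lay mostly below 0. Of 5 with a row, 4 were below 0 with a median of −0.32 in the authors' deposited table, where the heme enzyme gene Alas2 was at −0.99 (SE 0.29; DESeq2 adjusted p = 0.443). The transferrin receptor gene Tfrc, which dividing cells of many kinds also use, was at 0.57 in the authors' deposited table (SE 0.27, unadjusted DESeq2 p = 0.0350, adjusted p = 0.9998). Hepatocyte markers had a median of 0.05 with 4 of 8 above 0 and extremes of −0.16 and 0.43 in the authors' deposited table. The part of any cell type in the cell-cycle values was not tested.

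Promoter sequence was read for 3 motifs, and not every gene held one. Windows from 250 bases before to 50 bases after the start, from RefSeq on build GRCm38.p6, were matched for 30 of the 39 genes in 33 windows. These 30 are not the genes of the input: Birc5, Plk1, Nusap1, Ccnb1, Ccnb2 and Aurka are among them. Foxm1, Kif20a, Ccna2, Ccnd1 and Mcm4 are among those without a window. The CHR element was searched on both strands as TTTGAA. The same element was accepted with its other common spelling, TTTAAA. The box of the factor NF-Y was searched on both strands as CCAAT. E2F sites were searched on both strands as TTTCCCGC, TTTCGCGC, TTTGCCGC or TTTGGCGC. Matches of 1 motif may overlap each other. The following 200-base stretches, from 150 bases before to 50 bases after the start, are shown with matches in capitals. Top2a, Mki67 and Mcm2 had the highest folds of their roles, Kif11 holds 1 CHR and 1 CCAAT box, Mcm6 and Mcm3 hold E2F sites, and Cdk1 and Cdkn1a had the lowest folds of the 33 genes.
Top2a (chr11:99024140-99024339, minus strand): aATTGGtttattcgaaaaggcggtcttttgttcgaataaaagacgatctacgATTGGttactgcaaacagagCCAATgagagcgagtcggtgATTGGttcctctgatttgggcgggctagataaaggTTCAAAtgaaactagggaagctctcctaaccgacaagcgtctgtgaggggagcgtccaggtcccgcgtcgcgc
Mki67 (chr7:135716330-135716529, minus strand): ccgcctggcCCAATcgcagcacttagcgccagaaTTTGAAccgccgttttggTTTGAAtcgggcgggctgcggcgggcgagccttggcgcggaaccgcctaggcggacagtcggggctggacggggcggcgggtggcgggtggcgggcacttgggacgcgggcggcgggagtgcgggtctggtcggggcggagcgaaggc
Kif11 (chr19:37376232-37376431, plus strand): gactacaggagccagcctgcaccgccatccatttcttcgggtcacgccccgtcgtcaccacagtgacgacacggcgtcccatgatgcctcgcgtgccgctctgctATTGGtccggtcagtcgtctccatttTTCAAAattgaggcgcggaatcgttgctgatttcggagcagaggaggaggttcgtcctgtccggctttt
Mcm2 (chr6:88898731-88898930, minus strand): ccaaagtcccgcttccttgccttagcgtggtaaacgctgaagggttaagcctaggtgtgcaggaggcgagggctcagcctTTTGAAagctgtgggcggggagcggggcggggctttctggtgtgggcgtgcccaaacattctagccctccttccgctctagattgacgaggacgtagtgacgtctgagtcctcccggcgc
Mcm6 (chr1:128359656-128359855, minus strand): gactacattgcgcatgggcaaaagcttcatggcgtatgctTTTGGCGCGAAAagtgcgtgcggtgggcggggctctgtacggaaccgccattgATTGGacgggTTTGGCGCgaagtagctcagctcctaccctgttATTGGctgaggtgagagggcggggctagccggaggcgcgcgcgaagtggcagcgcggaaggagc
Mcm3 (chr1:20820263-20820462, minus strand): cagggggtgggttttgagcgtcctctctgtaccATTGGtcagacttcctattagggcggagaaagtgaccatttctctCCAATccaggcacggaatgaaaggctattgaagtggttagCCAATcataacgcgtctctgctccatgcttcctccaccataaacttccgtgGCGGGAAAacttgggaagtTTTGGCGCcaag
Cdk1 (chr10:69352863-69353062, minus strand): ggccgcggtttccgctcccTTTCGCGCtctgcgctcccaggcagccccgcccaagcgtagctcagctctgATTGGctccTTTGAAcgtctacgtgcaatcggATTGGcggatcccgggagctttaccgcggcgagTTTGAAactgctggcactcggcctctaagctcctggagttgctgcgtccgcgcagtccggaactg
Cdkn1a, upstream start (chr17:29090829-29091028, plus strand): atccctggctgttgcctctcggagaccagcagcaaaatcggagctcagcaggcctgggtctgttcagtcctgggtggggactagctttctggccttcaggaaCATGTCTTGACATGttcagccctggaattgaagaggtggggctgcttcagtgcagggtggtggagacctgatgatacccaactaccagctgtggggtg

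Mitosis genes held the CHR in 11 of 13 windows, replication genes in 3 of 11 and the cyclin, kinase and inhibitor genes in 5 of 9, against 27.6% of all 32851 windows. Counted by gene, 10 of 12 mitosis genes held one, since Prc1 has 2 overlapping windows. In Top2a one CHR begins 23 bases before the start and in Kif11 19 bases before it, each downstream of a CCAAT box. CCAAT boxes were in 25 of the 33 windows, against 37.4% of all windows. E2F sites were in 4 of 11 replication windows, as in Mcm6 and Mcm3, and in 0 of 13 mitosis windows, against 2.26% of all windows. Cdk1 held all 3 motifs, with a CHR 15 bases before its start, and still had a fold below 0. CHR and E2F matches thus differed in count between replication and mitosis windows, while CCAAT boxes were in 9 of 11 and 11 of 13 of them. Whether a match goes with the fold in the input was not tested.

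Neither of the windows of Cdkn1a held a CHR, a CCAAT box or an E2F site. Its upstream start instead has a pair of CATG cores 6 bases apart, beginning 48 bases before the start, shown in capitals above. Such a pair is the core of the form that p53 binds. It was searched for after the sequence had been seen, and 0.712% of all windows held one. A match is a description of letters, and binding was not measured here. The first transcribed base of the window was A, the base that can carry m6Am beside the cap, in 11 of the 33 windows, against 34.4% of all windows.

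**Figure D4:**
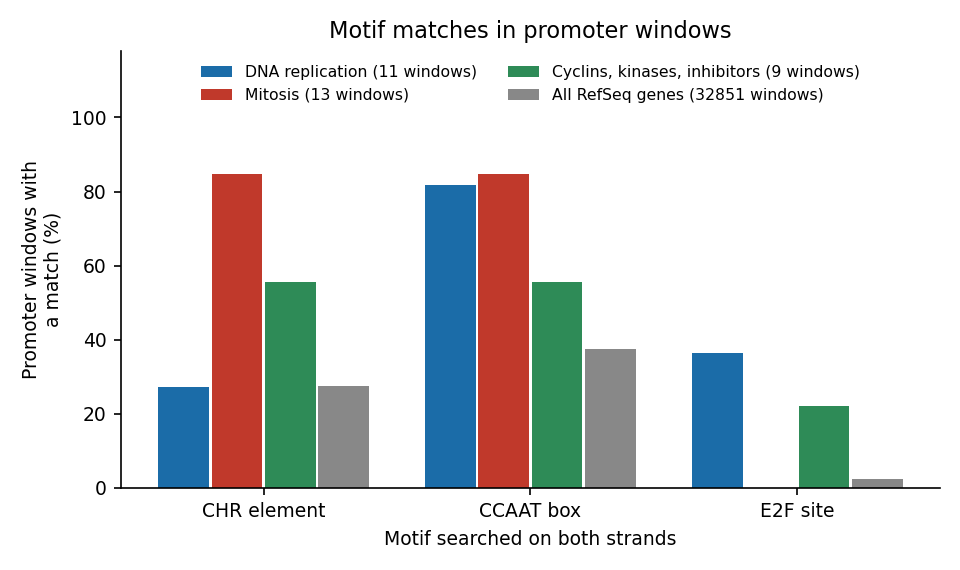
Share of promoter windows with at least 1 match (vertical axis, percent) to each of 3 motifs, for replication, mitosis and cyclin, kinase and inhibitor members and for all RefSeq genes. The CHR is in 84.6% of mitosis windows and 27.3% of replication windows, and the E2F site is in 0% of mitosis windows and 36.4% of replication windows.

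The antibody-bound RNA was compared in the same way, to ask whether the methylated pool held more or less of these transcripts without Fto. Direction in the immunoprecipitate table is read as knockout over wild type. Its basis is that folds in the 2 tables went loosely together (Spearman 0.175 across 692 protein-coding genes, a description across genes that are not independent). Read the other way, every sign below turns. By the authors' adjusted p 0 of the 13 cell-cycle features were called, where 4.69% of features with an adjusted p were. An unadjusted p under 0.05 was also reached by 0 of the 12 with a p, where 10.4% of all features did. Calls from fold over SE, adjusted over the table, numbered 0 of 13, where 10.8% of all features passed. Only the 2 Foxm1 transcripts had an adjusted p at all, the lower at 0.327 in the authors' deposited table.

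In the authors' deposited table the cell-cycle features had means between 0.462 and 10.7, so each rests on few reads. Of the 13 features, 12 had a fold below 0, as did 70.5% of all features in the authors' deposited table. The median of the 13 was −4.58, and that of all features was −1.59 in the authors' deposited table. Transcripts of 1 gene share exons and often carry the same fit, so the 13 features are 7 genes.

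Foxm1 had the deepest features, with means of 10.7 and 10.4 and a log2 fold change of −4.58 (SE 2.06, p = 0.0972 for the first) in the authors' deposited table. Aurka, a kinase of the spindle poles, had 3 features with means from 1.85 to 2.38 and log2 fold changes of −4.94 (SE 3.10 for the deepest) in the authors' deposited table. Aurkb, its relative at the chromosomes, had 2 features with the same mean of 5.23 and the same fold of −1.01 (SE 1.17, p = 0.346) in the authors' deposited table. That value lies 0.58 above the median of all features. Pcna stood at −1.75 (SE 2.89), which is −0.16 from that median in the authors' deposited table. The mitotic kinases Aurka and Aurkb thus lie on opposite sides of the median feature, Aurka by slightly more than its SE and Aurkb by less.

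Of the inhibitors, Cdkn1b had the lowest folds of the 13 features. Its 2 features had a mean of 3.53 and a log2 fold change of −8.64 (SE 3.41, p = 0.117) in the authors' deposited table. The printed SE would give a 95% interval from −15.32 to −1.96, while the authors' p is 0.117, since that p is not the ratio of fold to SE. At such a mean the size of a fold is poorly measured. Cdkn1a had features at −4.35 (SE 3.44, mean 1.85) and −2.11 (SE 4.22, mean 0.462) in the authors' deposited table. Cdk1 was the only feature above 0, at 7.36 (SE 4.25, mean 3.37) in the authors' deposited table, where it has no p.

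**Figure D5:**
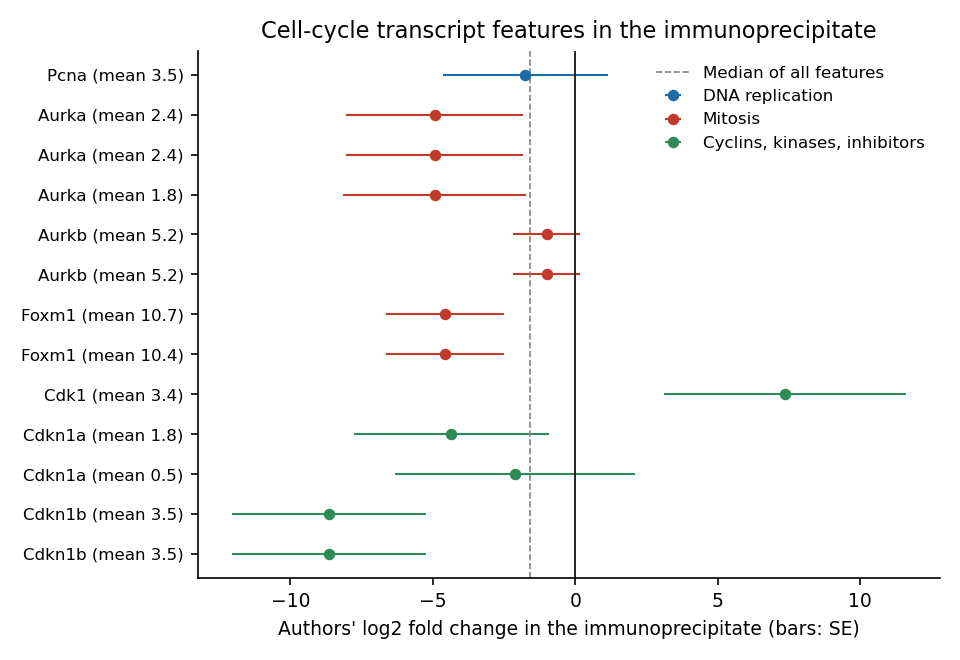
Log2 fold change of the 13 cell-cycle transcript features in the immunoprecipitate, knockout over wild type (horizontal axis), with the authors' mean normalized count beside each name; bars are 1 SE and the dashed line is the median of all features at −1.59. All but Cdk1 at 7.36 lie below 0, and bars reach over 4 units at the lowest means.

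Side by side, 6 genes had a row in both tables. Cdkn1b was at −8.64 in the immunoprecipitate and 0.21 in the input, and Foxm1 at −4.58 and 0.43, in the authors' deposited tables. Cdk1 was at 7.36 in the immunoprecipitate and −0.41 in the input, and Cdkn1a, by its deeper feature, at −4.35 and −0.63 in the authors' deposited tables. Pcna was at −1.75 and 0.41, and Aurkb at −1.01 and 0.06, in the authors' deposited tables. The tables were normalized separately, and their SEs reached 0.302 in the input and 4.41 in the immunoprecipitate, so sizes cannot be compared between them. Signs were opposite for 5 of the 6 genes and the same for Cdkn1a. With the immunoprecipitate direction turned they are the same for 5 and opposite for Cdkn1a, so no agreement or disagreement can be read from them. In the tables as a whole 70.5% of immunoprecipitate features lay below 0 and 53.5% of input genes above 0, and 0 of these values were called in either table.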

How the data were processed

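miCLIP immunoprecipitate and input libraries of Fto knockout and wild-type mouse liver were compared by the authors. The submitters' processing notes list STAR, bedtools 2.25.0, DESeq2 and the build mm10, and give no role for them. Per the file headers, each row holds the authors' mean normalized signal, a log2 fold change with its SE, a test statistic (unit score in the deposited files), a p-value and an adjusted p-value from the authors. The sources used here do not give the counting rules, the model or the filters. Depth per library is unknown.

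In the input the statistic is fold over SE. In the immunoprecipitate the p-value is that of a chi-square with 1 degree of freedom at the statistic, not the ratio of fold to SE. Features were called at the authors' adjusted p under 0.05. Intervals of 95% are fold ± normal quantile times SE. Python 3.11.15, pandas 2.3.3 and scipy 1.17.1 were used, and the adjustment was tested on simulated data. Input names were matched by gene identifier (12869 of 12883). Promoters and coordinates are RefSeq GRCm38.p6, the assembly of mm10.

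Members and lists were chosen with earlier results of these data known, so lists are described by counts and medians with no test. Statistics were given for members with an unadjusted p under 0.05, for the largest fold of each role group in each direction, and for Top2a, Mki67, Ccnd1 and Cdkn1a, with further errors where a comparison of members needed them. Non-members were named where an unadjusted p was under 0.05. Alternatives were other adjustments, minimum means, centring, weighting and name matching.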

Additional observations from a re-analysis of the deposited data

How the results depend on the processing

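No member was called under the authors' adjustment, under adjustment over the deposited table alone, or from fold over SE, in either table. At an unadjusted p under 0.05 the input count was 3 of 33 and the immunoprecipitate count 0. The value for all input members kept its sign, from 0.21 as an inverse-variance weighted mean to a median of 0.39 at a mean of at least 10. Such weights favour small SEs, as of Rrm2 at 0.19 and of the rare Ccne1 at 0.20. As a weighted mean the replication value was 0.25, against a median of 0.39, and the cyclin, kinase and inhibitor value 0.06, against 0.12. The median of the mitosis members was 0.66 at a mean of at least 10, where Top2a alone remained. No replication or mitosis member has a mean of at least 50. In the immunoprecipitate the median was −4.35 with 1 feature a gene and −2.98 after centring on the table. A minimum mean of 5 and matching by listed name only were chosen after seeing the data and changed no sign of a median. A change of median was set against the members' median SE, since no replicate spread was at hand. No paired analysis was possible because the tables hold no replicate columns, and for the same reason no replicate could be left out. In the input 0 of 33 members passed the authors' adjusted p under 0.05, where 5 of all 12865 genes tested did. Most members had low means, and whether that bears on the lack of calls was not tested.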
